A study of Mus musculus with 6 samples.

Results

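The libraries hold RNA counts from single-cell suspensions of mouse hippocampal tissue, and the barcodes described here are those in which no transcript of the mitochondrial genome was counted. A barcode was kept when it held at least 500 genes, at least 1000 unique molecular identifiers (UMIs, tags that count original RNA molecules) and 0 UMIs over the 13 genes whose symbol starts with mt-. Such barcodes are called mt-zero below. In the 4 5×FAD samples, 10766 of the 25449 barcodes past the gene and UMI minimum met the rule, out of 50224 barcodes deposited for all 6 samples. Of these, 9318 were called neurons because they held at least 3 UMIs over Rbfox3, Syt1 and Snap25, and 1448 were left as remaining barcodes.

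The comparison set 2 samples from 5×FAD mice given Aβ3FTnAu against 2 samples from 5×FAD mice given PBS, all from mice 6 months old. 5×FAD is a transgenic Alzheimer model in which mutant human transgenes of familial disease are expressed from a neuron-directed Thy1 promoter, so both groups carry the transgenes. Aβ3FTnAu is described in the series title as a computationally guided protein-gold nanostructure aimed at human amyloid-β plaques. Its route, dose and duration, and the number and sex of the animals behind each sample, are not given in the sources used here, so p-values measure the spread between samples, which may be technical. The 2 samples from age-matched wild-type (WT) littermates given PBS stood outside the comparison, and their values are given beside it.

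Mitochondrially encoded mRNAs stay inside mitochondria, so their UMIs are commonly read as a sign of cytoplasm carried into a droplet, and isolated nuclei hold few of them. Messenger RNAs for ribosomal proteins and for nuclear-encoded respiratory chain subunits also lie mostly in the cytoplasm, whereas the long non-coding RNAs Malat1 and Meg3 are kept in the nucleus. The mt-zero rule makes the first of these signs equal in both groups, and the question is which differences between treated and untreated samples are then still present. The hippocampus holds excitatory granule and pyramidal neurons, GABAergic interneurons, oligodendrocytes, astrocytes and microglia. Near plaques, microglia are known to raise a set of genes that includes Apoe, Trem2, Cst7 and Lpl.

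The share of mt-zero barcodes itself differed between the groups. It was 22.5% and 17.4% in the 5×FAD PBS samples (exact Clopper-Pearson 95% intervals 21.3 to 23.7% and 16.6 to 18.2%) and 65.9% and 64.3% in the Aβ3FTnAu samples (64.7 to 67.0% and 63.0 to 65.5%). The WT samples lay at 56.4% and 29.2%. The group means were 19.9% ± 3.60 and 65.1% ± 1.13 (SD, n = 2 each), a difference of 45.1 points, and the exact two-sided permutation p was 0.333, the smallest that 2 against 2 samples allow. With every barcode thinned to 1000 UMIs the shares were 56.4% and 49.3% in the PBS samples and 86.4% and 87.6% in the Aβ3FTnAu samples, so the groups stayed apart at equal depth. Just outside the rule, 894 and 1430 barcodes of the PBS samples and 1338 and 1150 of the Aβ3FTnAu samples held exactly 1 mt- UMI. Within 100 UMIs above the UMI minimum stood 42, 49, 113 and 100 mt-zero barcodes, and within 100 UMIs below it stood 31, 53, 148 and 127, in the order PBS 1, PBS 2, Aβ3FTnAu 1, Aβ3FTnAu 2. Exactly 3 neuron-marker UMIs were held by 7, 16, 78 and 32 neurons, and exactly 2 by 31, 16, 73 and 48 of the remaining barcodes.

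Equal mt- UMIs did not make the other signs of cytoplasmic and nuclear RNA equal. In mt-zero barcodes, ribosomal protein mRNAs made up 0.164% and 0.207% of UMIs in the PBS samples and 0.110% and 0.107% in the Aβ3FTnAu samples, a difference of -0.0770 points. The WT samples held 0.212% and 0.170%. In barcodes with at least 1 mt- UMI and at most 15% mt- UMIs, called mt-positive below, the ribosomal shares were 0.173%, 0.215%, 0.118% and 0.108%, so each sample kept nearly the same share on both sides of the rule. Nuclear-encoded respiratory chain mRNAs followed the same order, with 0.203% and 0.235% in PBS and 0.165% and 0.164% in Aβ3FTnAu mt-zero barcodes. The sum of 13 nuclear lncRNAs was also lower in the treated samples, at 6.99% and 6.37% of UMIs against 9.81% and 10.2%. That is a difference of -3.32 points, and the WT samples held 8.05% and 9.92%. Most of this sum was Malat1, which alone held 8.67% and 9.12% in PBS and 5.75% and 5.10% in Aβ3FTnAu samples. In the edgeR test given below, 4 of the 13 rose, among them Meg3, and Malat1 and Neat1 fell (median log2 fold change 0.04). Of all genes tested there, 13.8% rose and 13.3% fell. The exact two-sided permutation p was 0.333 for the ribosomal protein share and for the summed nuclear lncRNA share in mt-zero barcodes.

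**Figure D1:**
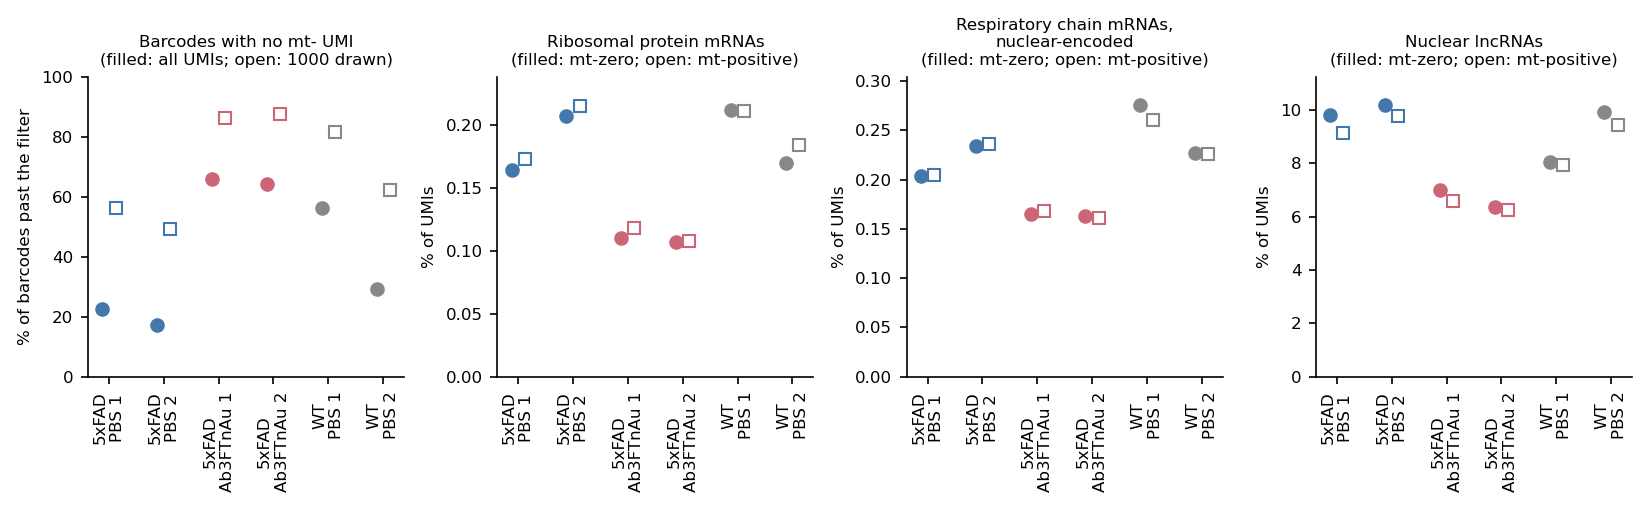
Shares by sample for the 6 samples (x axis): barcodes without a mt- UMI as % of barcodes past the filter, with open squares after drawing 1000 UMIs, then ribosomal protein, respiratory chain and nuclear lncRNA counts as % of UMIs, each point 1 sample, blue for 5×FAD PBS, red for 5×FAD Aβ3FTnAu and grey for WT PBS. The red points lie apart from the blue ones in each panel, and filled (mt-zero) and open (mt-positive) points of 1 sample lie close together in the 3 panels of UMI shares.

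The mt-zero barcodes held 6339645 and 6404738 UMIs in the PBS samples and 23000377 and 21186157 in the Aβ3FTnAu samples, with medians of 4784, 3938, 4368 and 4825.5 UMIs per barcode. Neurons made up 76.0% and 82.9% of them in PBS and 90.9% and 85.6% in Aβ3FTnAu samples, a difference of 8.76 points (exact two-sided permutation p = 0.333), and of 2.24 points under a stricter cell filter (p = 0.667, permutation). Without PBS replicate 1 the difference was 5.31 points and without Aβ3FTnAu replicate 1 it was 6.15 points (exact permutation p = 0.667 for each). The neuron list summed to 4054, 3778, 4122 and 4110 CPM (counts scaled to a total of 1000000) over all mt-zero barcodes; these 3 genes also set the neuron rule, so the sum is no separate check of that class. Over the 6 pairs of these 4 libraries, 92 cell barcode sequences were shared and 12 of these were mt-zero in both.

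Over all mt-zero barcodes, summed per sample, 4769 of 17635 genes tested (27.0%) passed an adjusted p of 0.05 in edgeR's quasi-likelihood test, 2425 higher with Aβ3FTnAu (13.8% of genes tested) and 2344 lower (13.3%). The same fit in mt-positive barcodes called 5542 of 19020 genes (29.1%). Called genes with a change of at least 2-fold numbered 947 higher and 695 lower in mt-zero barcodes, and 1013 and 516 in mt-positive ones. The median size of the change over all tested genes was 0.31 on the log2 scale in mt-zero and 0.27 in mt-positive barcodes. When the 2 WT samples shared the estimate of the spread, 43 genes were called in mt-zero and 0 in mt-positive barcodes (edgeR), with 4008 mt-positive genes at an unadjusted p under 0.05. Between the 2 samples of a group, the chi-square over its degrees of freedom was 34.7 for WT, 2.64 for PBS and 9.34 for Aβ3FTnAu. This value grows with the UMIs summed, which were fewest in the PBS pair, and the WT pair was taken without the same low-count filter. The PBS value therefore does not rank against the others by spread. The WT pair held 35594510 and 8855383 UMIs, and the Aβ3FTnAu pair 23000377 and 21186157. The part of the filter in the gap between the WT and Aβ3FTnAu values was not tested. Without PBS replicate 2 the mt-zero count was 1987, and without PBS replicate 1 it was 3111. In sums over mixed cells, fewer cells of a type and less of an RNA per cell cannot be told apart.

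Apoe, a lipid carrier made mainly by astrocytes and, near plaques, by microglia, was among the steepest falls over all mt-zero barcodes. Its level was 201 and 200 CPM in the PBS samples and 49.5 and 53.5 CPM in the Aβ3FTnAu samples, with 289 and 108 CPM in WT. Its log2 fold change was -1.93 ± 0.08 (SE, n = 2 and 2; adjusted p = 9.71e-07), and in mt-positive barcodes -1.72, with a difference of -0.20 that did not pass (adjusted p = 0.321). Reln, the secreted protein of Cajal-Retzius cells and some interneurons, rose from 29.3 and 30.3 CPM to 89.4 and 90.8 CPM (log2 fold change 1.63 ± 0.09). C4b, a complement component, fell from 15.9 and 16.7 to 4.39 and 8.97 CPM (log2 fold change -1.26, adjusted p = 0.00704), a call that was lost without PBS replicate 2. The nuclear lncRNA Malat1 fell from 86724 and 91186 to 57539 and 50961 CPM (log2 fold change -0.68 ± 0.12), whereas Meg3, another nuclear lncRNA, rose from 5194 and 4820 to 6446 and 6533 CPM (0.41 ± 0.09, lost without PBS replicate 2). Camk2a, a synaptic kinase gene, and App, the mouse gene of the amyloid precursor, did not pass, with log2 fold changes of 0.05 ± 0.08 and -0.19 ± 0.08.

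In mt-zero neurons, genes known from GABAergic interneurons were among the steepest rises, and the steepest falls included Rasl10a, C1ql3 and Shisa4. Of 17199 genes tested, 4705 passed (27.4%), 2361 higher with Aβ3FTnAu (13.7%) and 2344 lower (13.6%), and mt-positive neurons gave 5325 of 18686 (28.5%). The neurons held 5911674 and 6063438 UMIs in the PBS samples and 22362524 and 20326767 in the Aβ3FTnAu samples. With the WT samples in the fit, 91 genes were called in mt-zero neurons and 0 in mt-positive ones (edgeR; 3931 of the latter at an unadjusted p under 0.05). Without PBS replicate 2 the mt-zero neurons gave 2422 calls.

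Nxph1 (ENSMUSG00000046178, chromosome 6, 8948431 to 9249032, GRCm38), which encodes the neurexin ligand neurexophilin 1 of inhibitory neurons, stood at 86.9 and 123 CPM in the PBS samples and 361 and 404 CPM in the Aβ3FTnAu samples. The WT samples lay between the groups, at 215 and 199 CPM. Its log2 fold change was 1.87 ± 0.12 (adjusted p = 1.47e-06). Erbb4, the neuregulin receptor of interneurons, went from 367 and 439 to 1160 and 1114 CPM (1.5 ± 0.10, adjusted p = 1.41e-06), against 867 and 806 CPM in WT. Kcnmb2, a potassium channel subunit, went from 50.4 and 58.7 to 183 and 151 CPM (1.62 ± 0.11). Nxph1 and Kcnmb2 were named by a rule that asks for groups that do not overlap, so their separation is no separate finding. For Nxph1, Erbb4 and Kcnmb2 the mt-positive neurons of the PBS samples sat between the 2 groups of mt-zero neurons. Sox6 and Maf, transcription factors of interneurons derived from the medial ganglionic eminence, rose by 1.72 ± 0.16 and 1.59 ± 0.18 on the log2 scale. Btbd11, a synaptic protein gene of inhibitory neurons, rose by 1.72 ± 0.13. Gad2, which encodes the GABA-synthesising enzyme GAD65, went from 11.7 and 14.2 to 41.9 and 35.1 CPM (1.58 ± 0.14, adjusted p = 9.32e-06), and its WT levels were 36.1 and 22.3 CPM.

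The marker sums of neuron types moved with these genes. Gad1, Gad2 and Slc32a1 summed to 38.9 and 50.5 CPM in mt-zero neurons of the PBS samples and 95.2 and 84.7 CPM in those of the Aβ3FTnAu samples, a ratio of 2.01, against 1.80 in mt-positive neurons. Gad1 and Gad2 passed as rises, whereas Slc32a1, the vesicular GABA transporter, read 6.43 and 6.93 against 5.5 and 3.4 CPM and did not pass (-0.58 ± 0.27, adjusted p = 0.136). The granule neuron markers Prox1, C1ql2 and Dsp went the other way, from 117 and 142 to 67.7 and 53.2 CPM, a ratio of 0.466 in mt-zero and 0.734 in mt-positive neurons, and all 3 passed as falls (median log2 fold change -1.06). The Cajal-Retzius markers Reln, Ndnf and Trp73 summed to 38.6, 40.7, 102 and 98.6 CPM, a ratio of 2.53, of which Reln passed. The part of these shifts in the calls was not tested. Among neurons with no Gad1, Gad2 or Slc32a1 UMI, a choice made after seeing the data, 3769 genes were called. The log2 fold changes there were 1.39 for Nxph1, 1.22 for Sox6, 0.89 for Kcnmb2 and 1.64 for Erbb4. The 3 markers are sparse, so an interneuron can hold 0 of their UMIs and stay in this subset. Granule neurons were not set apart in it.

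Other steep rises were in genes of other roles. Fgf1, a fibroblast growth factor gene that overlaps Arhgap26 on the opposite strand, was the steepest, from 31.1 and 31.2 to 130 and 132 CPM (2.08 ± 0.10, adjusted p = 6.4e-08). The WT samples read 22.0 and 69.2 CPM, so they spanned more than the PBS pair, and with them in the fit the adjusted p was 0.107. Gins2, a DNA replication factor gene that overlaps Gse1, went from 19.1 and 20.1 to 62.2 and 66.8 CPM (1.72 ± 0.11), while the WT samples read 4.73 and 22.6 CPM. Grip1os1, antisense to Grip1, and Chmp4c, a membrane remodelling subunit, rose by 1.84 ± 0.12 and 1.59 ± 0.14. The sources used here do not say whether the counting used strand, so reads of antisense pairs may not be separated.

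Among the falls, C1ql3 (ENSMUSG00000049630, chromosome 2, 13003457 to 13011806), a secreted synaptic organiser of excitatory neurons, went from 107 and 131 CPM to 34.3 and 32.2 CPM, against 103 and 83.2 CPM in WT. Its log2 fold change was -1.83 ± 0.10 (adjusted p = 4.36e-07), and it stayed below the threshold in the fit with the WT samples (adjusted p = 0.0192). Rasl10a, a small GTPase gene, fell from 33.3 and 62.5 to 10.2 and 10.9 CPM (-2.18 ± 0.20). Its 2 PBS samples differed from each other, and the mt-positive fall was smaller (-1.46), with a difference of -0.73 that passed (adjusted p = 0.00447). Igfbp5, an insulin-like growth factor binding protein, fell by 1.72 on the log2 scale, and Shisa4, a membrane adaptor gene, by 1.78.

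Other named falls were in genes of mixed roles. H3f3b, a histone H3.3 gene, went from 104 and 136 to 42.1 and 40.2 CPM (-1.54 ± 0.11, adjusted p = 2.11e-06), with 107 and 106 CPM in WT, so both WT samples lay within the range of the PBS samples. Mrpl41, a mitochondrial ribosomal protein gene of the nucleus, went from 42.8 and 55.9 to 15.4 and 15.8 CPM (-1.66 ± 0.13). Snrpf, a spliceosome core protein gene, and Isca2, an iron-sulfur cluster assembly factor, had log2 fold changes of -1.76 and -1.5. Morn2 and the secreted C1q-like protein gene C1qtnf4 fell by 1.71 and 1.51 on the log2 scale. Apoe in barcodes called neurons fell from 87.5 and 109 to 40.1 and 40.5 CPM (-1.28 ± 0.10), and the part of free RNA in that count was not tested.

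**Figure D2:**
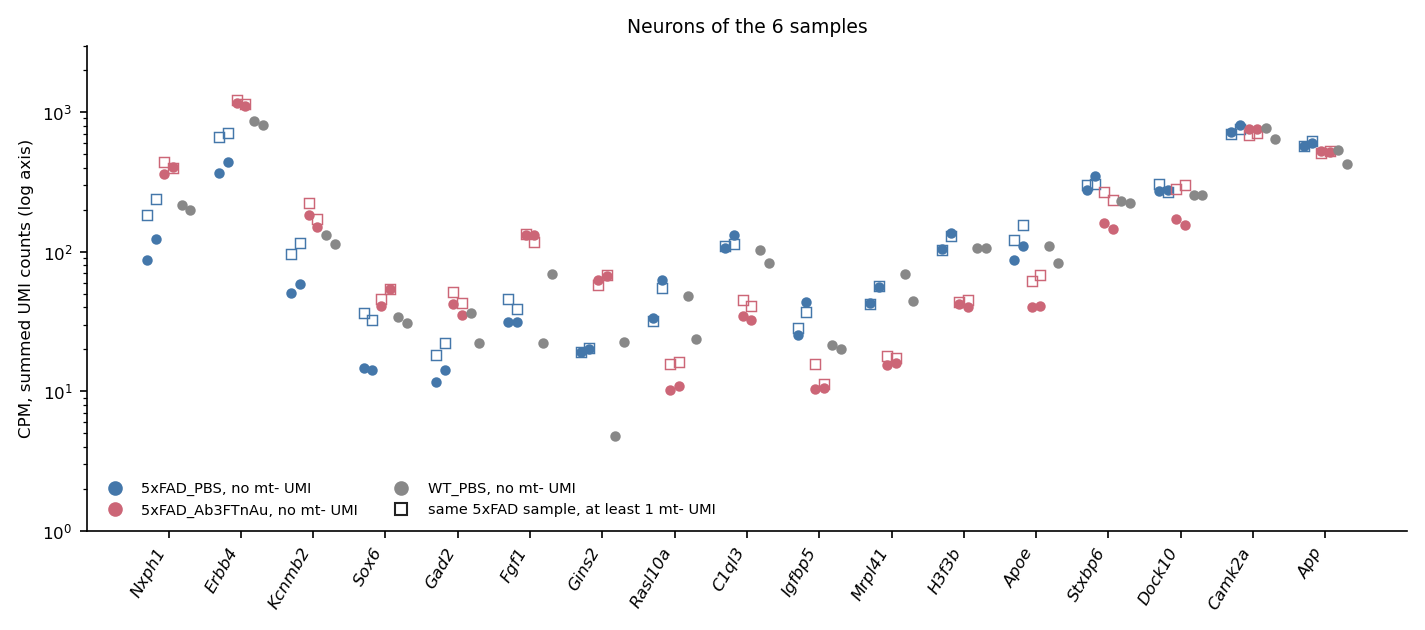
CPM of summed UMI counts (log axis) for 17 named genes in neurons, with 1 filled point per sample for mt-zero neurons and 1 open square for mt-positive neurons of the same 5×FAD sample. Nxph1, Erbb4, Kcnmb2 and Sox6 are lower in mt-zero than in mt-positive neurons of the PBS samples, while Camk2a and App show nearly level points.

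Gene lists described the same neurons by function. Of 81 ribosomal protein genes tested, 66 fell and 0 rose (median log2 fold change -0.79, against -0.01 over all genes tested), with a median of -0.78 in mt-positive neurons. Of 87 nuclear-encoded respiratory chain genes, 42 fell and 1, the assembly factor Ndufaf5, rose (median -0.52). Of 24 entries for abundant cytoplasmic mRNAs such as Eef1a1 and Actb (Aldoa has 2 entries in the gene table), 13 fell and 0 rose (median -0.39), and the ferritin genes Fth1 and Ftl1 fell by 0.91 and 1.01 on the log2 scale. Both calls were lost at low ribosomal share, and that of Ftl1 also without PBS replicate 2 and with thinned barcodes. In mt-zero neurons whose ribosomal share was under the median of 0.126%, 1547 of 15958 genes tested were called, 949 higher and 598 lower. There 6 ribosomal genes fell (median -0.31), a list that also chose the subset. Of 86 respiratory chain genes 13 fell there (median -0.38), and of 24 abundant cytoplasmic entries 3 (median -0.22). That subset held 241 and 176 neurons in the PBS samples and 2557 and 2030 in the Aβ3FTnAu samples.

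Lists tied to neuronal work are read against the 13.7% of all genes that rose and the 13.6% that fell in these neurons. Of 28 synaptic genes, 3 rose (Nrxn3, Gria1 and Cplx1) and 7 fell, among them Syp and the NMDA receptor subunit Grin1 (median -0.07). Of 15 mRNAs known to travel into neurites, 4 rose, among them Shank1 and the motor gene Kif5a, and Nrgn fell (median 0.03). Of 12 immediate early genes, Nr4a1 and Npas4 rose and Jun, Btg2 and Bdnf fell. Arc, which is induced by activity, was not called (0.59 ± 0.31, adjusted p = 0.181).

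Lists of protein handling and metabolism are read against the same shares. Of 14 genes of amyloid processing, 5 fell, among them Thy1, Aplp1 and Itm2b, and 0 rose (median -0.19), and Thy1 is also the promoter source of the transgenes. App itself read 575 and 603 CPM in PBS and 525 and 521 CPM in Aβ3FTnAu samples and was not called (-0.17 ± 0.08, adjusted p = 0.157). Of 28 lysosomal genes, 14 fell, among them Ctsd, Ctsb and Lamp1, and the cholesterol exporter Npc1 rose (median -0.36). Of 17 chaperones, 6 of the endoplasmic reticulum and its stress response fell, among them Calr, Hspa5 and Xbp1, and the cytosolic Hspa8 rose (median -0.33). Of 17 glycolytic entries, Gpi1, Pfkp and Eno2 rose, a share near that of all genes, and 0 fell. Of 25 genes of the disease-associated microglia list counted in these neurons, 12 fell, among them Apoe, Trem2 and Tyrobp, and the growth factor gene Igf1, which interneurons also express, rose (median -0.69). The microglia markers summed to 254, 293, 294 and 282 CPM there, all detected. In neurons of low ribosomal share 3 of 28 lysosomal genes, 1 of 17 chaperones, 3 of 14 amyloid-processing genes and 2 of 21 disease-associated microglia genes fell. The share of all genes that fell was also smaller there, at 598 of 15958 tested against 2344 of 17199.

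**Figure D3:**
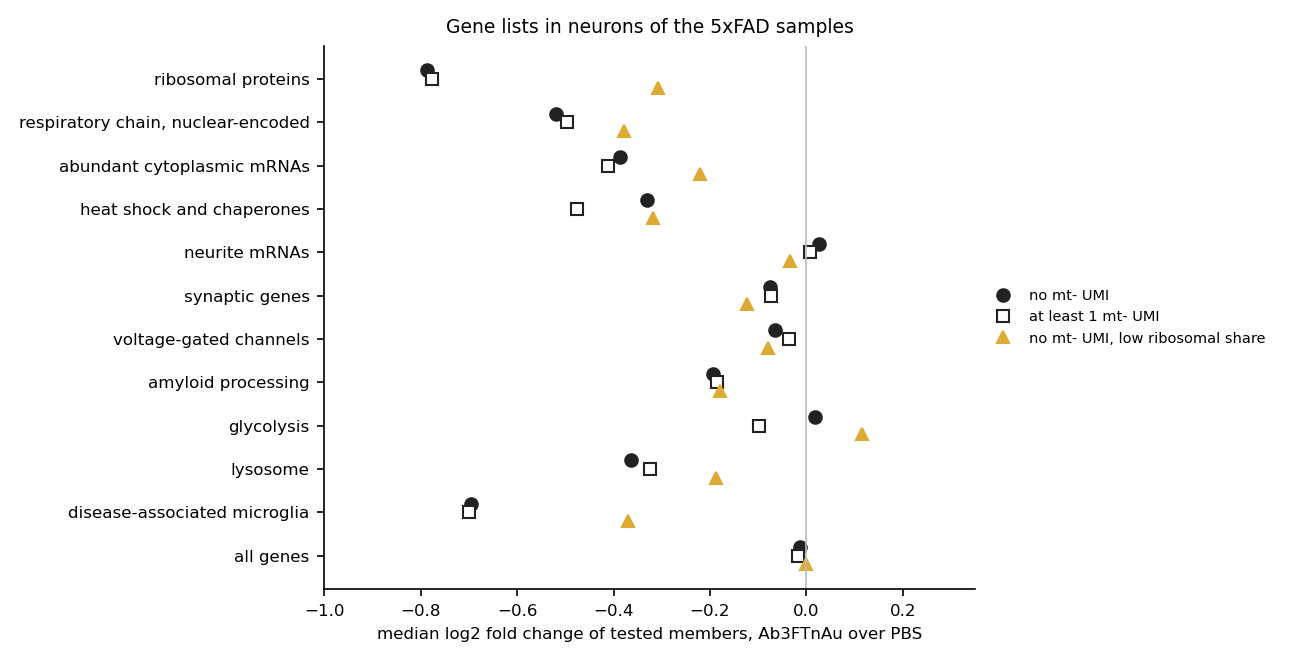
Median log2 fold change (x axis) of the tested members of 11 gene lists and of all genes in neurons, for mt-zero neurons (filled circles), mt-positive neurons (open squares) and mt-zero neurons of low ribosomal share (triangles). The circles and squares lie close together for ribosomal proteins (-0.79 and -0.78), and the triangle of that list lies nearer to 0 (-0.31).

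The treatment effects of mt-zero and mt-positive neurons were compared directly in 1 fit, with the sample as a block. The difference passed for 122 of 18927 genes (0.645%), 40 of them more positive and 82 more negative in mt-zero neurons, and over all barcodes for 302 of 19250 (1.57%). In neurons the count was 63 without PBS replicate 2, 322 without PBS replicate 1 and 297 without Aβ3FTnAu replicate 1. The 5 named genes that were more positive in mt-zero neurons are known from interneurons. The difference was 1.17 ± 0.12 for Sox6 (adjusted p = 3.61e-05), 0.88 ± 0.08 for Nxph1 (1.51e-05), 0.72 ± 0.08 for Kcnmb2 and 0.71 ± 0.06 for Erbb4. Sox6 read 36.2 and 32.4 CPM in mt-positive neurons of the PBS samples and 14.5 and 14.2 CPM in their mt-zero neurons, whereas the Aβ3FTnAu samples read 45.7 and 54.2 against 40.5 and 54.1. The gap thus lay in the PBS samples. Cntnap4, a contactin-associated gene of interneurons, showed a difference of 0.58 ± 0.07, and over all barcodes the X-linked Il1rapl2, a synaptic adhesion gene, one of 0.49 ± 0.06.

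Genes more negative in mt-zero neurons showed other patterns. Stxbp6, which binds the exocytosis machinery, went from 275 and 350 to 160 and 146 CPM in mt-zero neurons and from 299 and 305 to 265 and 234 CPM in mt-positive ones (difference -0.75 ± 0.07, adjusted p = 1.95e-05). Dock10, a guanine exchange factor gene, went from 273 and 274 to 171 and 155 CPM in mt-zero neurons, while its mt-positive change was 0.01 and did not pass (difference -0.78 ± 0.07). For both genes the gap between mt-zero and mt-positive neurons was wider in the treated samples. Glis3 and Sema5a, a zinc finger factor and an axon guidance ligand, gave differences of -0.66 ± 0.06 and -0.58 ± 0.06. Adarb2, a marker of interneurons of the caudal ganglionic eminence, was called in mt-positive neurons (0.72) and not in mt-zero neurons (0.17 ± 0.12), a difference of -0.56 ± 0.06. The granule markers took part as well, since 1 of the 3 passed as a difference in neurons and 2 of the 3 over all barcodes, each more negative in mt-zero barcodes. With every barcode thinned to 1000 UMIs, 26 differences were called in neurons and 1 over all barcodes.

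The remaining mt-zero barcodes were fewer and shallower. They numbered 260 and 233 in the PBS samples and 418 and 537 in the Aβ3FTnAu samples, with 427971, 341300, 637853 and 859390 UMIs in that order. By marker lists they held 144, 144, 156 and 340 oligodendrocyte-marker barcodes, 59, 54, 28 and 55 microglia-marker barcodes, 19, 8, 85 and 68 of oligodendrocyte precursors and 18, 4, 52 and 25 of astrocytes. Of 8417 genes tested, 112 passed (1.33%), 44 higher (0.523%) and 68 lower (0.808%), against 696 of 10992 in mt-positive remaining barcodes (6.33%). The test of the difference of the 2 effects recovered 7% of simulated 2-fold differences in this class, so a lack of calls does not show equal effects. The difference passed for 1 of 9798 genes (0.0102%, edgeR), with 467 at an unadjusted p under 0.05. The count depended on single libraries, with 10 calls without PBS replicate 2, 39 without PBS replicate 1, 250 without Aβ3FTnAu replicate 1 and 946 without Aβ3FTnAu replicate 2. It was 4 with the WT samples in the fit and 0 in barcodes of low ribosomal share (edgeR; 156 of the latter at an unadjusted p under 0.05).

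The named falls held microglial genes and plaque-response genes. Trem2, a lipid-sensing receptor of microglia, went from 236 and 252 to 25.1 and 45.4 CPM, against 48.5 and 27.3 CPM in WT (log2 fold change -2.74 ± 0.29, adjusted p = 0.00443). The treated samples thus lay near the WT samples in these mixed sums. The microglia markers also summed to similar values there, 826 and 975 CPM in the treated and 990 and 1068 CPM in the WT samples. Within microglia-marker barcodes, given below, the WT samples lay far apart for Trem2. Tyrobp, the adaptor that Trem2 signals through, went from 138 and 105 to 25.1 and 18.6 CPM (-2.49 ± 0.32), and Cst7, an inhibitor of cathepsins, from 49.1 and 58.6 to 4.70 and 6.98 CPM (-3.11 ± 0.44, a call lost without PBS replicate 2), with 0 in both WT samples. Hk2, a hexokinase gene, went from 140 and 182 to 34.5 and 32.6 CPM (-2.24 ± 0.27, adjusted p = 0.00586), and was the named gene of this class that passed under every setting in which it was tested. Apoe went from 1766 and 1822 to 378 and 360 CPM (-2.28 ± 0.26), while the WT samples read 3673 and 780 CPM. Bcl2a1b, Glrp1, Olfr111, Lpl and Lilrb4a made up the other named falls, with log2 fold changes from -3.06 to -2.31, and each lost its call without PBS replicate 2. Of 21 genes of the disease-associated microglia list, 12 fell and 0 rose (median -1.58, against 0.00 over all genes), and in mt-positive remaining barcodes 20 of 26 fell (median -2.03). The microglia markers themselves summed to 2306 and 2370 CPM in PBS and 826 and 975 CPM in Aβ3FTnAu remaining barcodes, all of them detected, and the part of this drop in the falls was not tested in these sums.

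Several of the named rises in the remaining barcodes were genes best known from neurons. Reln went from 14.0 and 0 CPM to 67.4 and 149 CPM, which is 6 UMIs against 171 (log2 fold change 3.80 ± 0.67, adjusted p = 0.0303), and it was the 1 gene whose effect differed from mt-positive barcodes (3.15 ± 0.60, adjusted p = 0.0348). In mt-positive remaining barcodes it read 58.3 and 71.4 CPM in PBS, so the low value belonged to the mt-zero PBS barcodes. Adarb2 rose from 224 and 229 to 829 and 631 CPM (1.69 ± 0.26) and the potassium channel gene Kcnc2 from 51.4 and 23.4 to 232 and 178 CPM (2.40 ± 0.34). Vwc2, Nrg3os, Thsd7b, B9d1, Myo16, Sorbs2os and Jazf1 rose by 1.69 to 2.99 on the log2 scale. Every one of the 10 named rises lost its call without PBS replicate 2. Marker sums of neuron types moved with them: the inhibitory markers read 28.0, 2.93, 51.7 and 39.6 CPM and the Cajal-Retzius markers, of which Reln is one, 30.4, 0, 98.8 and 175 CPM. The oligodendrocyte precursor markers read 1252, 609, 2328 and 1684 CPM, and the part of these sums in the rises was not tested.

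In oligodendrocyte-marker barcodes, which held 227413, 210359, 227417 and 508725 UMIs, Apoe and Ptgds fell in mt-zero and mt-positive barcodes alike. Apoe went from 998 and 1203 to 339 and 246 CPM, with 1109 and 739 CPM in WT (log2 fold change -2.01 ± 0.19, adjusted p = 2.76e-06). It passed under every setting run and had an adjusted p of 0.000882 with the WT samples in the fit. Ptgds, the prostaglandin D synthase of oligodendrocytes, went from 1737 and 2082 to 743 and 627 CPM (-1.55 ± 0.16, adjusted p = 4.27e-06), and its mt-positive change was -1.47. Of 4177 genes, 40 passed (0.958%), 19 higher (0.455%) and 21 lower (0.503%), and in mt-positive barcodes of this class 55 of 6522 (0.843%). The mt-zero count was 72 without PBS replicate 1, 73 without Aβ3FTnAu replicate 1 and 130 without Aβ3FTnAu replicate 2.

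The myelin list was lower in its median within this class. Mbp, myelin basic protein, read 4041 and 4164 against 4991 and 5046 CPM and was not called (0.23 ± 0.13, adjusted p = 0.466). Mbp was among the markers that chose the barcodes. The median log2 fold change of the 16 myelin genes was -0.44, against 0.01 over all genes tested, and 0 of them rose. C4b read 312 and 376 against 163 and 228 CPM (-0.83 ± 0.22, adjusted p = 0.0689), did not pass, and stood at 6.92 and 13.9 CPM in WT. Of 7 genes of the disease-associated oligodendrocyte list, Apoe and Cd9 fell.

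Some rises in this class came with a gap between the 2 treated samples. Pcdh17, a protocadherin gene, read 176 and 176 CPM in PBS and 1548 and 407 CPM in Aβ3FTnAu samples (2.36 ± 0.41, adjusted p = 0.00614). Itpr2, a calcium release channel, went from 44.0 and 23.8 to 233 and 120 CPM (2.18 ± 0.41), and Cntn1, an adhesion gene, rose by 1.63 ± 0.37, a call lost without Aβ3FTnAu replicate 1. The difference from mt-positive barcodes, a fit added after seeing the data, passed for 13 of 4777 genes (0.272%), all of them more positive in mt-zero barcodes, with 1.92 ± 0.29 for the matrix gene Tnr and 1.45 ± 0.25 for Pcdh17. The oligodendrocyte precursor markers summed to 87.9, 119, 180 and 147 CPM in these barcodes, the Cajal-Retzius markers to 4.4, 0, 17.6 and 94.4 CPM and the neuron list to 255, 171, 268 and 230 CPM, and their part in the rises was not tested. In the barcodes without any neuron-marker UMI, 78 genes were called.

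Microglia-marker barcodes were the smallest class, with 81427, 70202, 34446 and 74877 UMIs. Apoe went from 4065 and 4088 to 842 and 1002 CPM (-2.11 ± 0.18, adjusted p = 2.72e-09), while the WT samples read 2832 and 498 CPM. Trem2 went from 982 and 997 to 58.1 and 227 CPM (-2.52 ± 0.35, adjusted p = 1.22e-05), against 702 and 45.2 CPM in WT. Both genes passed under every setting run. Cst7 was counted 32 times in the PBS and 2 times in the Aβ3FTnAu samples, 11.5-fold lower (95% counting interval 2.94 to 99.3), and 0 times in WT, and its call was lost without either PBS replicate. Ctsb, a lysosomal protease, read 921 and 783 against 377 and 294 CPM (-1.40 ± 0.30), and Lpl, lipoprotein lipase, 282 and 228 against 87.1 and 53.4 CPM (-1.96 ± 0.54). The calls of Ctsb, Lpl and Tyrobp (-1.61 ± 0.40) were lost without PBS replicate 1 and without Aβ3FTnAu replicate 2.

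The homeostatic genes P2ry12 and Cx3cr1 were not called. P2ry12, the purinergic receptor of resting microglia, read 725 and 726 CPM in PBS and 552 and 828 CPM in Aβ3FTnAu samples (0.00 ± 0.26), and Cx3cr1, the fractalkine receptor, 1130 and 712 against 987 and 855 CPM (-0.03 ± 0.25). Both helped to choose the barcodes, and P2ry12 lies within Med12l on the other strand. Of 18 disease-associated genes tested, 11 fell (median -1.37), and of 12 homeostatic genes 1, Gpr34, fell (median -0.02). Of 18 lysosomal genes 8 fell (median -1.10), and of 4 complement genes C1qa, C1qb and C1qc fell, which are markers of the class. In all, 74 of 1792 genes passed (4.13%), 48 higher (2.68%) and 26 lower (1.45%), with 55 of 4329 (1.27%) in mt-positive barcodes of this class. Without PBS replicate 2 the mt-zero count was 48.

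The rises in microglia-marker barcodes included genes best known from neurons. Nrxn3, a presynaptic neurexin, read 172 and 157 CPM in PBS, 581 and 1482 CPM in Aβ3FTnAu and 274 and 1493 CPM in WT samples (2.76 ± 0.36, adjusted p = 7.67e-06). Meg3 read 332 and 256 against 1771 and 1055 CPM (2.18 ± 0.30). The sulfotransferase gene Hs3st4 went from 2 to 27 UMIs, an 18.7-fold ratio (4.71 to 162). Dclk1 and Arpp21 went from 2 to 19 and from 3 to 22 UMIs, ratios of 13.2 (3.18 to 117) and 10.2 (3.06 to 53.1). The calls of Hs3st4 and Arpp21 were lost without Aβ3FTnAu replicate 1, that of Arpp21 also without PBS replicate 1, and that of Dclk1 without either PBS replicate. Requiring 5 marker UMIs left 21 of 28 and 48 of 55 barcodes of the Aβ3FTnAu samples, and 5 genes then rose in place of 48, with the calls of Nrxn3 and Meg3 lost. Of 11 synaptic genes, 4 rose and 0 fell. The neuron list moved with them, at 295 and 199 CPM in PBS and 435 and 401 CPM in Aβ3FTnAu samples, while the microglia list stood at 9874, 9558, 6271 and 6798 CPM. In the barcodes with 0 neuron-marker UMIs, 33 of 1051 genes tested were called, 16 higher and 17 lower. The falls held 7 disease-associated genes (median of the tested list -1.28) and the rises 3 synaptic genes (median of the tested list 1.44). Tyrobp read -1.03 there, with an adjusted p of 0.282 (edgeR).

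In this class the difference from mt-positive barcodes, again a fit added after seeing the data, passed for 14 of 2196 genes (0.638%), 12 more positive and 2 more negative in mt-zero barcodes. Cntnap2, a neuronal adhesion gene, changed by 2.47 ± 0.35 in mt-zero and -1.39 in mt-positive barcodes, and the latter did not pass. The adhesion gene Tenm2 and Nrxn3 gave differences of 3.29 ± 0.59 and 2.92 ± 0.50. The mt-positive side rested on 12 and 29 barcodes of the Aβ3FTnAu samples, with 15830 and 40511 UMIs. Apoe and Trem2 gave differences of -0.24 ± 0.31 and -0.38 ± 0.55, which did not pass. The test recovered 7% of simulated 2-fold differences in this class.

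**Figure D4:**
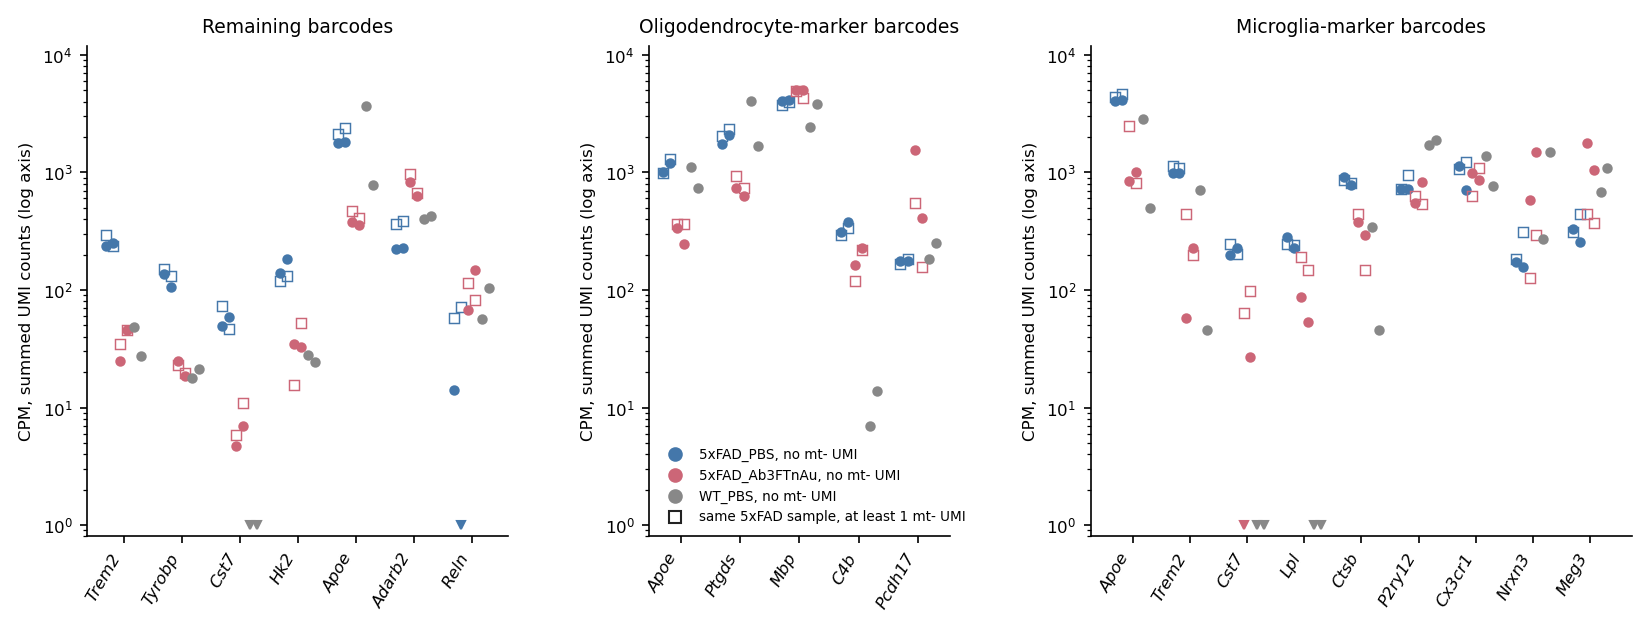
CPM of summed UMI counts (log axis) for named genes in the remaining, oligodendrocyte-marker and microglia-marker barcodes, with 1 filled point per sample for mt-zero and 1 open square for mt-positive barcodes of the same 5×FAD sample; triangles at the lower edge mark samples at 0. Apoe and Trem2 are lower in the Aβ3FTnAu samples on both sides of the mt- rule, and P2ry12 and Cx3cr1 overlap between the groups.

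The number of calls depended on how the spread was estimated and on how many counts were left. In mt-zero neurons 4705 genes became 2772 with DESeq2, 1710 with every barcode thinned to 1000 UMIs, 3800 with equal numbers of barcodes per sample and 5776 with up to 1 mt- UMI allowed. The remaining barcodes ranged from 0 to 946 over the same kinds of settings. Under none of the settings run did a named gene that was called change direction.

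**Figure D5:**
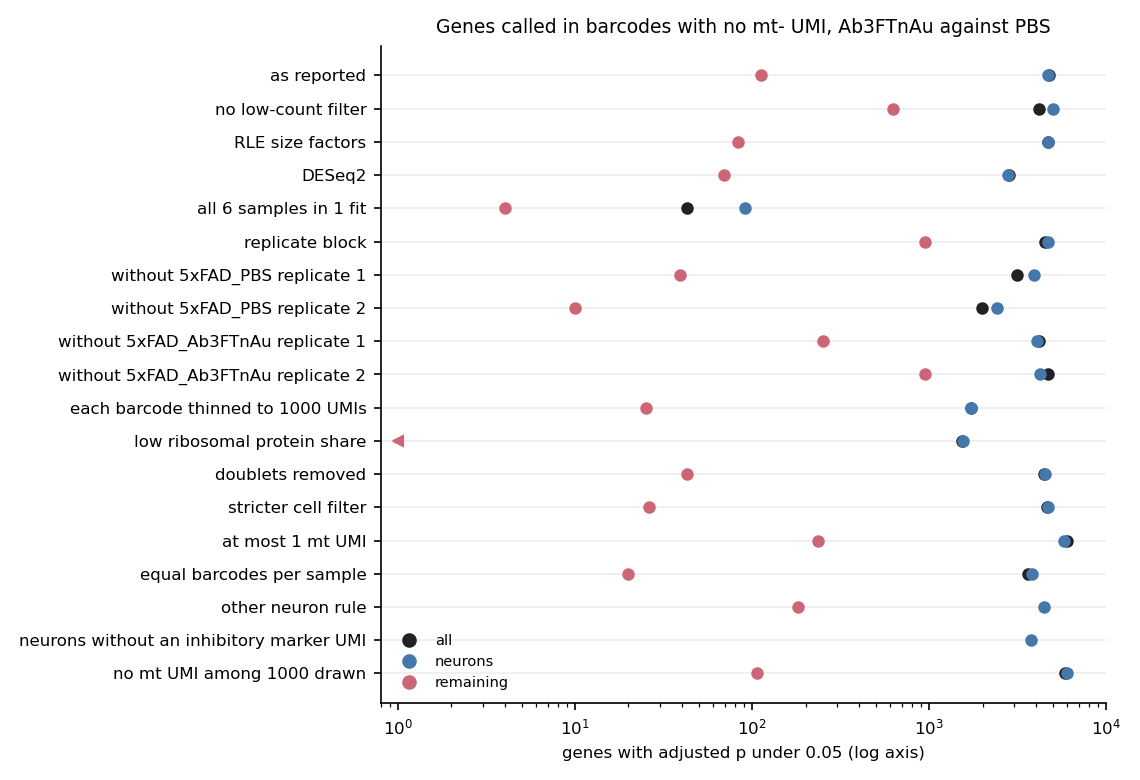
Number of genes with an adjusted p under 0.05 (x axis, log scale) in all mt-zero barcodes, neurons and remaining barcodes under each setting (y axis), with a left-pointing triangle for a count of 0. The neurons range from 91 with all 6 samples in 1 fit to 5960 when the absence of mt- UMIs is judged among 1000 drawn UMIs.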

How the data were processed

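The authors deposited, per sample, whole-number UMI counts of 32285 genes; per the file headers, Cell Ranger 7.1.0 made them. The mm10 build and Seurat 4.3.0.1 are named in the submitters' processing notes. The sources used here do not say whether introns or strand were used in counting. Samples were grouped by their labels (2 per group). Members, gene lists and marker lists were chosen with earlier results of these data known.

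Barcodes were filtered and split as described, and raw counts were summed per sample (Python 3.11.15, numpy 2.4.6, pandas 2.3.3, scipy 1.17.1). Oligodendrocyte-marker and microglia-marker barcodes were remaining barcodes with at least 3 UMIs over that marker list and at least 2 times as many as over any other list. The sums were tested with edgeR 4.0.16 (R 4.3.3, limma 3.58.1): TMM, filterByExpr, quasi-likelihood test, Benjamini-Hochberg adjusted p under 0.05 over all genes tested. CPM are counts scaled to a total of 1000000 per sum. Alternatives included DESeq2 1.42.0. Doublets were kept, and an alternative removed the 422 highest-scoring mt-zero barcodes (scanpy 1.11.5). Gene coordinates came from GENCODE annotation of GRCm38, matched by gene identifier for 84 of 84 named genes.

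Named genes were up to 10 rises and 10 falls by fold change (5 and 5 in the marker classes) among called genes with a mean of at least 20 CPM and samples of the groups not overlapping, leaving out unnamed gene models and markers of other cell types, then up to 5 genes each way that passed as differences, and genes fixed by name whatever their values, some of which are not reported here. On simulated counts for the same comparisons, 2-fold changes were recovered for 63% of changed genes over all mt-zero barcodes and 69% in neurons. The recovery was 23% in remaining, 46% in oligodendrocyte-marker and 29% in microglia-marker barcodes. In the same order, 4-fold changes were recovered for 94%, 96%, 83%, 81% and 77%. Each simulation changed 200 genes, and 17, 21, 6, 4 and 3 unchanged genes were also called. For differences of effect, simulated as changes in the mt-zero sums alone, 2-fold recovery was 36%, 56%, 7%, 27% and 7%. The 4-fold recovery of differences was 81%, 90%, 55%, 68% and 47%, and 11, 13, 3, 5 and 1 unchanged genes were called as differences. Same-numbered replicates correlated at -0.05 to 0.134 in their deviations from the group means, so the numbers were not taken to pair the samples. Intervals of shares cover counting error only.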

Additional observations from a re-analysis of the deposited data

Results flagged for a closer look

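Where the treatment effect was tested to differ between mt-zero and mt-positive barcodes of the same samples, it passed for 302 genes over all barcodes, 122 in neurons, 1 in the remaining, 13 in oligodendrocyte-marker and 14 in microglia-marker barcodes. All values here are mt-zero minus mt-positive log2 fold changes.

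Over all barcodes the difference was 0.82 for Nxph1, 0.71 for Kcnmb2, 0.63 for Erbb4, 0.59 for Cntnap4 and 0.49 for Il1rapl2. It was -0.70 for Stxbp6, -0.63 for Glis3, -0.62 for Dock10, -0.55 for Sema5a and -0.53 for Adarb2. In neurons it was 1.17 for Sox6, 0.88 for Nxph1, 0.72 for Kcnmb2, 0.71 for Erbb4 and 0.58 for Cntnap4. On the other side it was -0.78 for Dock10, -0.75 for Stxbp6, -0.66 for Glis3, -0.58 for Sema5a and -0.56 for Adarb2 in neurons. The inhibitory and granule neuron marker sums moved along with these genes, and their part in them was not tested.

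In the remaining barcodes the difference was 3.15 for Reln, which rested on 6 UMIs in the PBS samples. In oligodendrocyte-marker barcodes it was 1.92 for Tnr, 1.45 for Pcdh17, 1.43 for Pcdh7, 1.20 for Frmd4a and 0.82 for Lsamp. In microglia-marker barcodes it was 3.90 for Cntnap2, 3.29 for Tenm2, 2.92 for Nrxn3, 2.10 for Meg3, 1.99 for Kcnip4, -1.74 for Pid1 and -2.22 for Zfp36l1. The mt-positive side of that class held 12 and 29 barcodes in the Aβ3FTnAu samples. Differences in the oligodendrocyte-marker and microglia-marker classes were not fitted under any alternative setting.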

How the results depend on the processing

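Counts of called genes follow the order mt-zero all, neurons, remaining, oligodendrocyte-marker and microglia-marker barcodes, whose reported counts were 4769, 4705, 112, 40 and 74. They were 2827, 2772, 69, 14 and 26 with DESeq2, and 43, 91, 4, 1 and 38 with all 6 samples in the fit. With barcodes thinned to 1000 UMIs they were 1710, 1710 and 25 in the first 3 and 18 in the last, and at low ribosomal share 1532, 1547, 0 and 3 in the first 4. The last class could not be fitted at low ribosomal share, since 1 sample held 0 such barcodes. The remaining barcodes gave 625 without a low-count filter, 43 without doublets, 26 under the stricter cell filter, 235 with up to 1 mt- UMI, 20 with equal barcodes and 182 under the other neuron rule. Requiring 5 marker UMIs gave 26 in the microglia-marker class, and requiring no neuron UMI gave 78 and 33 in the last 2 classes.

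With the replicate block the counts were 940 in the remaining, 151 in the oligodendrocyte-marker and 1093 in the mt-positive remaining barcodes, and the differences 207 in neurons and 5 in the remaining; it changed no other count by over 1.5 times. In the mt-positive all, neuron and remaining sets, all 6 samples gave 0, 0 and 8 calls, and in the last no filter gave 1124 and DESeq2 245. Differences numbered 1, 26 and 0 when thinned, and 411 in neurons and 8 in the remaining without a filter. The 0 of the remaining barcodes at low ribosomal share stood beside 156 genes at an unadjusted p under 0.05, those of the mt-positive sets beside 4008 and 3931, and that of the thinned differences beside 338 (edgeR).

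Leaving out 1 replicate each gave 1987 to 4691, 2422 to 4203, 10 to 946, 32 to 130 and 48 to 57 calls in the 5 mt-zero sets, 3456 to 5220, 3280 to 4164 and 25 to 1562 in the mt-positive sets, and 130 to 462, 63 to 322 and 4 to 28 differences. The lowest value came without PBS replicate 2 in the mt-zero sets. The share of calls that were rises went from 50.8% to 62.5% over all barcodes and from 50.2% to 61.3% in neurons at low ribosomal share, from 39.3% to 65.3% without a filter and 62.3% with DESeq2 in the remaining, and from 64.9% to 19.2% with 5 marker UMIs in the microglia-marker class. The cause was not tested.

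Near-zero log2 fold changes of genes that were not called changed sign. Camk2a read -0.024 (no mt- UMI among 1000 drawn) and -0.000969 (stricter filter) over all barcodes, and 0.0825 (no inhibitory marker UMI) and 0.00921 (no low-count filter) in neurons. In microglia-marker barcodes P2ry12 read -0.0295 (DESeq2), -0.00786 (all 6 samples), -0.0137 (thinned), -0.0946 (no low-count filter), -0.135 (no neuron UMI) and -0.0373 (replicate block), and Cx3cr1 0.0718 (5 marker UMIs), 0.0153 (no neuron UMI) and 0.0463 (replicate block). With 1 replicate left out, Camk2a ranged from -0.0219 to 0.114 over all barcodes and from -0.0663 to 0.0349 in neurons. In microglia-marker barcodes the same ranges were -0.866 to 0.340 for Fth1, -0.136 to 0.685 for App, -0.393 to 0.205 for P2ry12 and -0.306 to 0.348 for Cx3cr1. The settings on drawn UMIs, inhibitory marker UMIs and neuron UMIs were among 6 added after seeing the data. Depth limits the remaining and marker classes, where recovery of simulated 2-fold changes was 23% to 46% and of simulated 2-fold differences 7% to 27%.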
